A study of Mus musculus with 2 samples.

Results

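The vascular microRNA genes described here are Mir126a and Mir126b, tied to endothelium, and Mir143, Mir145a and Mir145b, tied to smooth muscle cells and pericytes. They were chosen by name and by the cell types they are tied to, and make up 5 of the 2202 microRNA genes listed in each table. Short RNA was sequenced from left cerebral cortex, taken from female B6CASTF1/J mice aged 10 days, which are hybrids of the C57BL/6J and CAST/EiJ strains. Both libraries belong to the same group of biological replicates, called animal 1 and animal 2 after the replicate numbers in the labels. The labels number the females differently but give both the same donor entry, so the spread between them may hold technical parts. The libraries held 3806078 reads counted to the own strand of a microRNA gene in animal 1 and 2602935 in animal 2. The tissue is whole cortex, so fewer cells of a type and less RNA per cell cannot be told apart.

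MicroRNAs are cut from hairpin transcripts into mature strands, which guide repression of messenger RNAs that pair with bases 2 to 8, the seed. miR-126 is a classic microRNA of endothelial cells, the lining of blood vessels. It is made from an intron of Egfl7, which encodes a protein secreted by endothelium, and it supports vessel integrity by restraining inhibitors of growth factor signalling such as Spred1. miR-143 and miR-145 are made together in vascular smooth muscle and in the pericytes that wrap capillaries, and they favour the contractile state of these cells.

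The sequences below are those of the Mir126a and Mir126b genes, shown because these genes lie on opposite strands of the same stretch of DNA, which decides how reads can be assigned to them. Mir126a (ENSMUSG00000065540.1) lies on the plus strand of chromosome 2 at 26591357 to 26591429, and Mir126b (ENSMUSG00000105799.1) on the minus strand at 26591363 to 26591420 (mm10). The Mir126b hairpin is the exact reverse complement of bases 7 to 64 of the Mir126a hairpin, 58 bases in all. Capitals mark the miR-126a-3p strand in the hairpin, and the seed in each mature strand. Sequences are from RefSeq (GRCm38.p6), whose table held 2 of the 5 members.
Mir126a hairpin: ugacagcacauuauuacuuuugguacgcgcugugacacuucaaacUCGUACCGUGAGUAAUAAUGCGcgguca
miR-126a-3p: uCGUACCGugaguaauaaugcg
miR-126b-5p: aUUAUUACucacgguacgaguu
miR-126b-3p: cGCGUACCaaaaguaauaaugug

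Of the 22 bases of miR-126a-3p, at positions 46 to 67 of its hairpin, those at 46 to 64 lie within the Mir126b hairpin. Opposite strands give different RNAs: the seeds of miR-126a-3p and miR-126b-3p share a run of 6 bases but are offset. None of the other 1737 mature entries of the RefSeq table had the same seed as any of the 3 strands. Only seeds were compared, so the same bases may occur elsewhere in an entry. The bases of the miR-126b-5p seed also occur in the Mir126a hairpin, outside miR-126a-3p. Beyond its antisense partner, the Mir126a hairpin shares at most 11 bases in a row with any of the 2201 other listed hairpins in the same sense.

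Of the 5 genes, 3 were detected at 10 counts per 1000000 reads counted to microRNA genes (CPM) or more in both animals, against 13.8% of the other 2197 genes. Mir126a was the most abundant of them, Mir143 followed and Mir145a was lowest. Mir126b and Mir145b had no own-strand read in either animal. The 5 genes together held 3.21% of counted reads in animal 1, with an exact Clopper-Pearson 95% interval of 3.19 to 3.22, and 1.28% in animal 2, with one of 1.27 to 1.29. The mean was 2.24% ± 1.36 (SD, n = 2).

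Mir126a, the source of endothelial miR-126, had 110045 reads in animal 1 and 21513 in animal 2. As shares of counted reads these were 28913 CPM in animal 1, with a 95% interval of 28745 to 29082, and 8265 CPM in animal 2, with one of 8155 to 8376. The mean was 18589 CPM ± 14600 (SD, n = 2). It was the 9th most abundant gene in animal 1 and the 25th in animal 2. By mean CPM it stood 13th of the 770 genes with a read.

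Mir143 (ENSMUSG00000065445.3), the larger source of reads from the mural cell locus, had 11435 reads in animal 1 and 10535 in animal 2. These were 3004 CPM in animal 1, with a 95% interval of 2950 to 3060, and 4047 CPM in animal 2, with one of 3971 to 4125. The mean was 3526 CPM ± 737 (SD, n = 2). Its place was 60th in animal 1, 47th in animal 2 and 52nd by mean CPM.

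Mir145a (ENSMUSG00000065592.2), whose product represses Klf4 and Klf5 in smooth muscle, had 537 reads in animal 1 and 1241 in animal 2. These were 141.1 CPM in animal 1, with a 95% interval of 129 to 154, and 476.8 CPM in animal 2, with one of 450.6 to 504. The mean was 309 CPM ± 237 (SD, n = 2). Its place was 198th in animal 1, 130th in animal 2 and 155th by mean CPM. The order Mir126a, Mir143, Mir145a held in both animals with no overlap between the ranges of any pair. It also held per base of hairpin, at 254.6, 55.97 and 4.41 mean CPM per base. Hairpin genes were the unit of counting, so reads of the arms of a hairpin are summed.

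**Figure D1:**
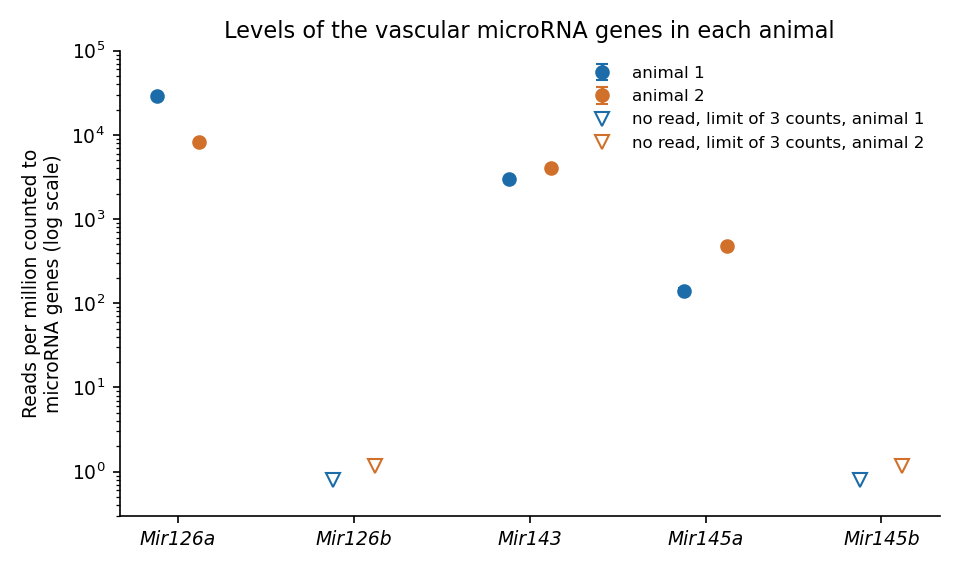
Own-strand level in CPM (log axis) for the 5 vascular genes in animal 1 and animal 2, with exact 95% intervals that are mostly smaller than the points. Open triangles stand for genes with no read, at the limit of 3 counts. Mir126a was higher in animal 1, at 28913 CPM against 8265 CPM in animal 2, while Mir143 and Mir145a were lower in animal 1.

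The genes next to the members in mean CPM are named to place their levels. The 3 genes above Mir126a by mean CPM were Mirlet7e, Mir149 and Mir99b, and the 3 below it were Mir433, Mir652 and Mir128-1. Mir143 stood between Mir431, Mir328 and Mir30a above it and Mir92b, Mir323 and Mir383 below it, and Mir145a between Mir1843b, Mir421 and Mir3059 above it and Mir6540, Mir496a and Mir3072 below it. For each of these 18 genes the range over the animals overlapped that of the member, and its order relative to the member differed between the animals.

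Mir126b, the antisense gene, had no own-strand read, which allows at most 0.788 CPM in animal 1 and 1.15 CPM in animal 2 (3 counts per library; counting error only). Its opposite-strand column held 110041 reads in animal 1 and 21513 in animal 2. These equal the own-strand reads of Mir126a less 4 reads in animal 1 and less 0 in animal 2. The Mir126a gene extends 6 and 9 bases beyond the ends of Mir126b.

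In the unstranded column Mir126a kept 4 reads in animal 1 and 0 in animal 2. The 110041 and 21513 reads that column lacked make up 35.6% of the 308707 reads set aside as ambiguous in animal 1 and 13.5% of the 158999 in animal 2. The same arrangement of overlapping microRNA genes on opposite strands holds for 64 listed genes. Levels of Mir126a can therefore be read only from the strand-specific column.

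**Figure D2:**
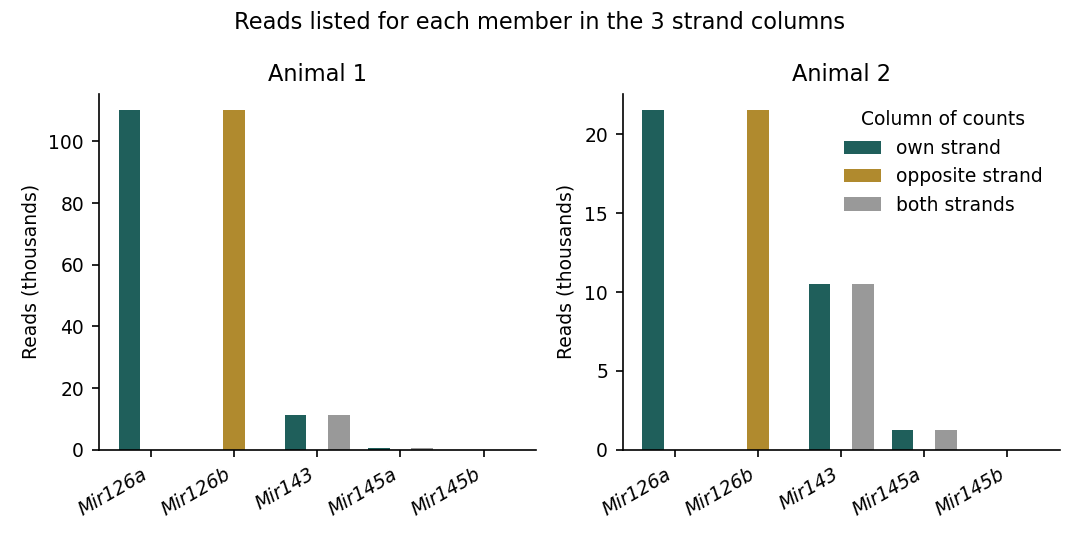
Reads, in units of 1000 on linear axes, listed for each of the 5 genes in the own-strand, opposite-strand and unstranded columns, in animal 1 on the left and animal 2 on the right, on separate scales. Reads of Mir126a stand under its own strand and again under the opposite strand of Mir126b, and are absent from the unstranded column except for 4 reads in animal 1. Mir143 and Mir145a have the same count in the own-strand and unstranded columns.

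Mir126a lies within introns of 8 Egfl7 transcripts and in an exon of 1 further Egfl7 transcript annotated as a retained intron, on the same strand. It also lies in an intron of Gm20532, a gene that overlaps Egfl7 on that strand. The nearest gene that does not overlap it is Agpat2, an enzyme gene of phospholipid synthesis, 1627 bases away on the minus strand.

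Mir143 (61649196 to 61649258) and Mir145a (61647825 to 61647894) lie on the minus strand of chromosome 18 (mm10), with 1301 bases between them, and overlap no other annotated gene. On the same strand, Carmn, a long non-coding RNA of cardiac and smooth muscle cells, ends 366 bases before the start of Mir143 in the direction of transcription. Bvht, a long non-coding RNA of the cardiac lineage, lies on the plus strand 352 bases beyond Mir145a. Mir145b (ENSMUSG00000098366.1) lies alone on the same chromosome at 69022199 to 69022273, 7374304 bases from Mir145a, with 4930546C10Rik as the nearest gene at a distance of 70670 bases.

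Mir145b had no read on either strand in either animal, with the same limits of 0.788 and 1.15 CPM. Its longest run of bases shared with Mir145a was 17, the longest for either gene among all listed hairpins in the same sense. Reads with more than a single mapping position were not counted to any gene, so a read within that run could not be credited to either. How many such reads came from there is not known from the tables. Mir143 shares at most 11 bases in a row with another listed hairpin.

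The animals differed in opposite directions at the endothelial and the mural genes. Reads of the libraries were compared by an exact binomial test given TMM (trimmed mean of M values) effective library sizes, with Benjamini-Hochberg adjustment over the 531 genes with at least 10 counts. That test compares these libraries and no condition, has no replicate check, and calls 51.6% of all genes tested, 26.9% as higher in animal 1 and 24.7% as higher in animal 2. Of the calls, 143 were higher in animal 1 and 131 in animal 2, beside 189 and 91 with library totals only. All 3 members tested were called, which is read against that background. The share called was higher among well-counted genes: with the filter at 100 counts, which the 3 members pass, 77.5% of 307 genes were called.

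Mir126a was 3.04-fold higher in animal 1, a log2 ratio of 1.60 (95% interval 1.58 to 1.62; adjusted p = 0 at the precision of the computation). Mir143 had a log2 ratio of -0.63 (-0.67 to -0.59; exact binomial adjusted p = 3.8e-227), which is 1.55-fold higher in animal 2. Mir145a had a log2 ratio of -1.96 (-2.11 to -1.81; exact binomial adjusted p = 9.7e-169), which is 3.89-fold higher in animal 2. Intervals and p-values cover counting error and not the spread between animals.

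Set against all genes, the differences of Mir126a and Mir145a were large and that of Mir143 ordinary. Both Mir126a and Mir145a were called with a difference of at least 2-fold, as were 16.9% of the genes tested, 13.0% higher in animal 1 and 3.95% higher in animal 2. The absolute log2 ratio of Mir126a exceeded that of 90.0% of the 531 genes, that of Mir145a exceeded 93.2% and that of Mir143 59.9%. Only 9 genes had a lower log2 ratio than Mir145a.

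Among the 102 genes tested with a mean of at least 1000 CPM, 2 had a higher log2 ratio than Mir126a and 11 a lower one than Mir143. The gene-wise biological coefficient of variation from edgeR was 48.0% for Mir126a, 34.1% for Mir143 and 56.3% for Mir145a, beside a common value of 38.0% for all genes. These gene-wise values are drawn toward a trend with level, which was 34.2%, 35.3% and 39.2% for these genes. They are therefore not the variation of each gene alone. The median log2 ratio of the genes tested was 0.04, with quartiles of -0.38 and 0.72.

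**Figure D3:**
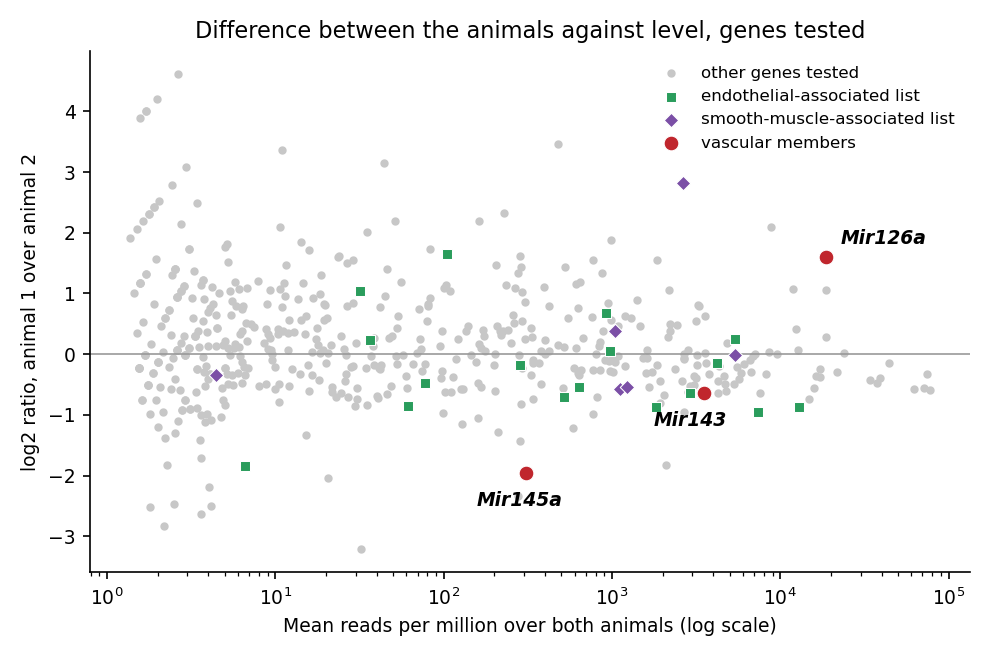
Log2 ratio of animal 1 over animal 2 after TMM scaling, against mean CPM over both animals (log axis), for the 531 genes tested. Mir126a lies at 1.60, Mir143 at -0.63 and Mir145a at -1.96, among members of the associated lists and all other genes in grey.

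Genes with the most similar log2 ratio, among those with at least 100 counts, were Mir200b (1.60), Mir544 (1.61) and Mir339 (1.61) for Mir126a. For Mir143 they were Mir206 (-0.64), Mir135a-2 (-0.62) and Mir17 (-0.64). For Mir145a they were Mir669e (-2.04), Mir140 (-1.82) and Mir34c (-2.34). This likeness rests on 2 libraries, and most of these genes lay far from the member in level: Mir200b had a mean of 23.6 CPM beside 18589 CPM for Mir126a.

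Ratios between members within a library do not depend on library size or scaling, and they differed between the animals for each of the 3 pairs. The 3 pairs use the same counts as each other and as the log2 ratios above, so they are not separate results. Mir126a had 9.62 reads per read of Mir143 in animal 1, with a 95% interval of 9.44 to 9.81, and 2.04 in animal 2, with one of 1.99 to 2.09, an odds ratio of 4.71 (4.57 to 4.86). Reads of Mir126a outnumbered those of Mir143 in both animals.

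Mir126a had 205 reads per read of Mir145a in animal 1 (188 to 223) and 17.3 in animal 2 (16.4 to 18.4), an odds ratio of 11.8 (10.7 to 13.1). By Fisher's exact test, two-sided and adjusted over the 3 pairs, both pairs with Mir126a had p = 0 at the precision of the computation. These tests compare the reads of these libraries.

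Mir143 and Mir145a, which are neighbours on the same strand, also differed in their ratio. Mir143 had 21.3 reads per read of Mir145a in animal 1, with a 95% interval of 19.5 to 23.3, and 8.49 in animal 2, with one of 8.003 to 9.01. This is an odds ratio of 2.51 (2.26 to 2.79; Fisher's exact test on reads, adjusted p = 9.1e-72). Their log2 ratios between the animals differed by 1.33. Over the 70 pairs of neighbouring microRNA genes on the same strand with at most 2000 bases between them and at least 100 counts each, the median difference was 0.59. It was larger than that of Mir143 and Mir145a in 12 pairs, or 17.1%. Of the 53 pairs with both genes called, 27 were called in opposite directions, whereas Mir143 and Mir145a were both higher in animal 2. This set of pairs was chosen after the values of the members were seen.

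**Figure D4:**
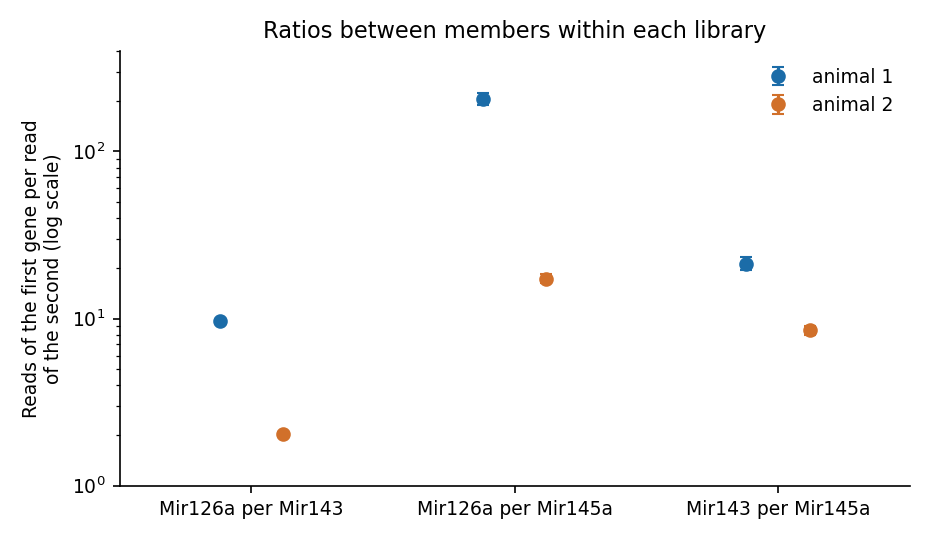
Reads of the first gene per read of the second within each library (log axis), with exact 95% intervals, for the 3 pairs of detected members. All 3 ratios were higher in animal 1, from 2.51 times for Mir143 per Mir145a to 11.8 times for Mir126a per Mir145a, as odds ratios.

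Other microRNAs linked to endothelium were split, with more of them in the direction opposite to Mir126a. Of 18 endothelial-associated genes listed, 17 were tested, 4 were higher in animal 1, 11 were higher in animal 2 and 2 were not called, with a median log2 ratio of -0.48 beside 0.04 for all genes tested. Of all genes tested, 26.9% were called higher in animal 1 and 24.7% higher in animal 2. With library totals only, 7 were higher in animal 1 and 8 in animal 2, and the median was -0.28 beside 0.25. Over all 531 genes tested, 189 were then higher in animal 1 and 91 in animal 2. With the filter at 100 counts, 5 of 16 were higher in animal 1 and 9 in animal 2. Of all 307 genes passing that filter, 123 were higher in animal 1 and 115 in animal 2. The list held 3.38% of counted reads in animal 1 and 4.28% in animal 2. The tissue was whole cortex, so reads of the list cannot be assigned to endothelium. Some listed genes are near neighbours, such as Mir17 and Mir18 (96 bases between them) and Mir221 and Mir222 (504 bases). Their calls are therefore not separate results.

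The most abundant were Mir23b, at 9989 CPM in animal 1 and 15865 CPM in animal 2 (log2 ratio -0.87), and Mir23a, at 5499 and 9271 CPM in animals 1 and 2 (-0.96). Both belong to clusters that act in vessel sprouting. Mir221, which restrains the stem cell factor receptor Kit in endothelium, had 1415 CPM in animal 1 and 2249 CPM in animal 2 (-0.87). Mir17, of a cluster that promotes cell growth, had a log2 ratio of -0.64. Mir296, an angiogenic microRNA, went the other way, at 6261 CPM in animal 1 and 4574 CPM in animal 2 (0.25). Less abundant genes of the list called higher in animal 1 were Mir210 (1.64), Mir24-2 (1.03) and Mir92-1 (0.67), while 11 genes were called higher in animal 2. The log2 ratio of Mir210 was near that of Mir126a, at a mean of 104.5 CPM. Mir130a, which represses anti-angiogenic homeobox genes, had a log2 ratio of -0.15 and changed sign to 0.05 with library totals only.

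Of the smooth-muscle-associated genes, 10 of 11 listed names were in the table and 6 were tested. Of these, 2 were higher in animal 1 and 2 were higher in animal 2, beside 26.9% and 24.7% of all genes tested. The other 2 were not called, and the median log2 ratio of the 6 genes was -0.18. That median was 0.02 with library totals only and also with the filter at 100 counts. Mir21a, induced in injured vessel walls, and Mir490 were higher in animal 2, with log2 ratios of -0.57 and -0.54, the direction of Mir143 and Mir145a.

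Mir195a, at 4724 CPM in animal 1 and 580.5 CPM in animal 2 (2.82), and its neighbour Mir497 (0.38) were higher in animal 1; Mir497 overlaps an antisense gene and had no read in the unstranded column. Mir100 had a log2 ratio of -0.01 and its call and sign depended on the scaling, from -0.06 with DESeq2 size factors to 0.19 with library totals only. Mir365-1 had 16 reads in animal 1 and 12 in animal 2. The muscle microRNA genes Mir1a-1, Mir1a-2, Mir133a-1 and Mir133a-2 had no own-strand read; all have other copies by name, and reads mapped to several positions are not counted to genes.

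Markers of other cell types were summed beside the members. The neuronal list held 4.26% of counted reads in animal 1 and 4.23% in animal 2. Both libraries are of cortex, so these shares cannot check the labelled tissue. Of the 12 neuronal genes, 9 were detected, and the 3 Mir124a copies, neuron-defining but multi-copy, had 13 reads or fewer. Calls among 10 neuronal genes were 4 higher in animal 1, 3 higher in animal 2 and 3 none. Of all genes tested, 26.9% were called higher in animal 1 and 24.7% in animal 2. That balance turned with the scaling, to 6 and 3 with library totals only and to 3 and 4 with DESeq2 size factors. The 4 fibroblast and meninges genes (Mir199a-1, Mir199a-2, Mir199b and Mir214) summed to 278 CPM in animal 1 and 53.8 CPM in animal 2. Of these, 1 of 2 tested, Mir214, was called higher in animal 1 (log2 ratio 2.20), beside 26.9% of all genes tested. Mir199a-1 was at 0 in both animals and Mir199a-2 was at 0 in animal 2.

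The 4 red blood cell genes summed to 79.6 CPM in animal 1 and 48.0 CPM in animal 2. Of these, Mir451a (log2 ratio 1.31) and Mir144 (1.17), which share a transcript in red cells, were called higher in animal 1, beside 26.9% of all genes tested. Mir486 and Mir3107 were not called. Sums of both lists were higher in animal 1, as was Mir126a, at levels far below it, and their part in its difference was not tested.

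The 5 genes of white blood cells and microglia summed to 1593 CPM in animal 1 and 1941 CPM in animal 2. Of these, 3 of 5 were called higher in animal 2, beside 24.7% of all genes tested. With the filter at 100 counts, which all 5 pass, 3 of 5 were called higher in animal 2, beside 115 of 307 genes. With library totals only, 2 of 5 were called higher in animal 2, beside 91 of 531 genes. The 3 oligodendrocyte genes summed to 1187 CPM in animal 1 and 1640 CPM in animal 2. Of these, 1 was called higher in animal 1 and 2 in animal 2, beside 26.9% and 24.7% of all genes tested. The gene higher in animal 1 was Mir219a-1, with 77 reads in animal 1 and 4 in animal 2. With the filter at 100 counts, 0 of 2 were higher in animal 1 and 2 of 2 in animal 2, beside 123 and 115 of 307 genes. Striated muscle genes summed to 47.0 CPM in animal 1 and 55.3 CPM in animal 2, with 4 of 8 at 0 in both. Of 4 tested, 1 was called higher in animal 2, beside 24.7% of all genes tested, a call lost with library totals only. Choroid plexus Mir204 had 865 CPM in animal 1 and 751 CPM in animal 2 and was not called, though it was called higher in animal 1 with library totals only (log2 ratio 0.20). The part of these lists in the differences of Mir143 and Mir145a was not tested.

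**Figure D5:**
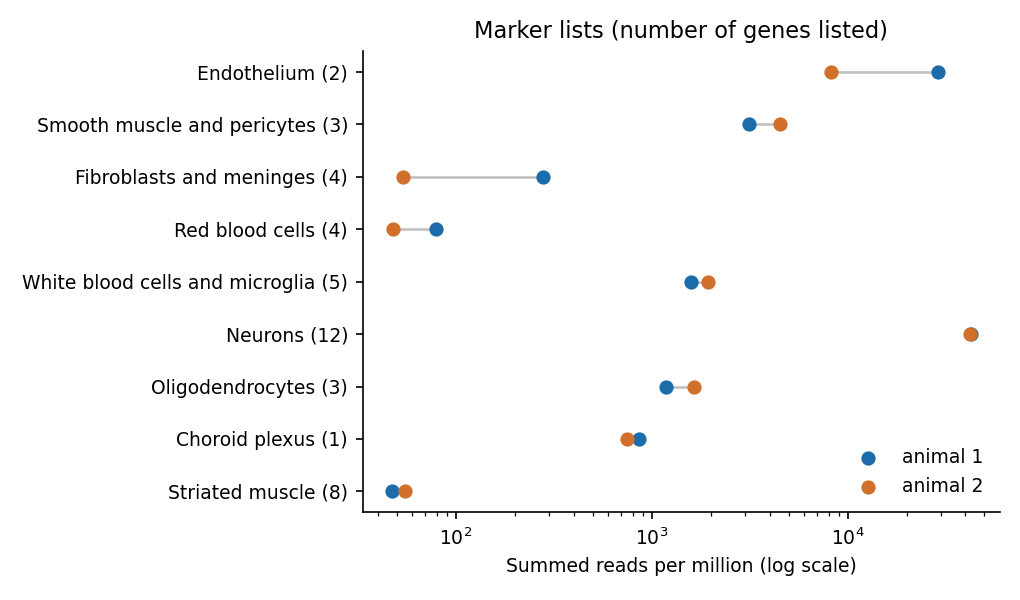
Summed CPM (log axis) of each marker list in animal 1 and animal 2, with the number of listed genes found in the table in parentheses. The endothelial list, made up of Mir126a reads alone, stood at 28913 CPM in animal 1 and 8265 CPM in animal 2. The smooth muscle and pericyte list stood at 3146 CPM in animal 1 and 4524 CPM in animal 2.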

How the data were processed

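Per the labels' protocols, microRNA libraries were made from total RNA with a multiplexed protocol. The authors deposited raw read counts per hairpin gene, 1 table per library, with columns for both strands, the gene's own strand and the opposite strand; per the file notes the build was mm10 and the annotation GENCODE M21. Which aligner and counter were used is not given in the sources used. The 4 rows that name no gene were left out. Own-strand counts totalled 3806078 of 11350270 reads (33.5%) in animal 1 and 2602935 of 8551277 (30.4%) in animal 2; reads mapped to several positions made up 42.7% and 40.4%. A chi-square test of the counts gave 198073 with 530 degrees of freedom, so the libraries are not copies.

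CPM is per 1000000 reads counted to microRNA genes. TMM factors (1.07 and 0.932) and coefficients of variation came from edgeR 4.0.16 in R 4.3.3, with an intercept-only design. Genes were compared across all genes tested by the exact binomial test in scipy 1.17.1; log2 ratios had 0.5 added to each count, and the adjusted p threshold was 0.05. The binomial test was tried on simulated counts with set fold differences and counting error only, so that trial does not cover variation between animals. The estimate of the common coefficient of variation was tried on counts simulated with known variation between libraries. No file shows molecular identifiers; intervals and the limit of 3 counts cover counting error only. Each SD rests on 2 animals.

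Alternatives were library totals only, size factors from DESeq2 1.42.0, filters of 1 and 100 counts, unstranded counts, all reads as denominator and leaving out each animal. The members, lists, tests and naming rule (all members, up to 6 genes per associated list by mean CPM, 3 nearest genes in level on either side and 3 in log2 ratio) were chosen with earlier results of these data known.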

Additional observations from a re-analysis of the deposited data

Results flagged for a closer look

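Opposite-strand counts lie outside the main measurement. Those listed for Mir126b were 110041 reads in animal 1 and 21513 in animal 2, although its own-strand count was 0. The limit given for that count of 0 covers own-strand reads only. These opposite-strand counts match the own-strand reads of Mir126a, of which they fall short by 4 reads in animal 1 and 0 in animal 2.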

How the results depend on the processing

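The log2 ratios of Mir126a (1.55 to 1.81 over 5 alternatives), Mir143 (-0.68 to -0.43 over 6) and Mir145a (-2.01 to -1.76 over 6) kept their direction and their call by the exact binomial test; the largest adjusted p was 4.3e-106, for Mir143 with library totals only. In the unstranded column Mir126a had too few reads for a ratio, and its pair ratios could not be computed there. That column also took its mean level to 0.572 CPM, the share of the 5 genes to 0.412% and the number detected to 2, because its reads are ambiguous with Mir126b. With all reads as denominator the mean level of Mir126a was 6106 per 1000000 reads, that of Mir143 1120 and that of Mir145a 96.2, and the share of the 5 genes 0.732%. Without each animal in turn, the level ran from 8265 to 28913 CPM for Mir126a, from 3004 to 4047 for Mir143 and from 141.1 to 476.8 for Mir145a, and the share of the 5 genes from 1.28 to 3.21%; 3 genes were detected either way.

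The number of genes called was 274 of 531 in the main analysis, 280 of 531 with library totals, 265 of 770 (34.4%) with no filter, 249 of 507 (49.1%) unstranded and 238 of 307 (77.5%) with at least 100 counts. Library totals moved the median log2 ratio of all genes from 0.04 to 0.25 and the share of calls higher in animal 1 from 52.2 to 67.5%. Scaling without the members and associated lists, and levels of the other 4 members per reads outside Mir126a, were added after seeing the data; the log2 ratio of Mir126a then stayed at 1.60 and the mean level of Mir143 was 3587 CPM. No paired analysis was possible because the samples form a single group. With 2 animals and no condition, the spread between them rests on a single difference.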
